A study of Mus musculus with 16 samples.

Results

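The H/ACA box small nucleolar RNAs (snoRNAs) and the small Cajal body RNAs (scaRNAs) of mouse plasma extracellular vesicles (pEVs) were taken as all entries whose symbol starts with Snora or Scarna. These were 36 of the 15159 non-coding RNAs (ncRNAs) listed, 34 Snora and 2 Scarna entries. Small RNA was sequenced from pEVs of 8 PS19 mice and 8 wild-type (WT) littermates, 1 library per mouse. PS19 mice are heterozygous for a human MAPT transgene with the P301S mutation, driven by the mouse prion promoter on a mixed C57BL/6 and C3H background, and develop tauopathy. Both groups held equal numbers of males and females of about 9.6 months, and pEVs were precipitated from 200 µL of plasma, which can bring down RNA carriers other than vesicles. The comparison asked whether the pEV level of these RNAs differs between PS19 and WT mice.

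H/ACA snoRNAs fold into hairpins joined by a single-stranded hinge that carries the H box, and end in a tail with the trinucleotide ACA. Together with dyskerin and its partner proteins they guide the conversion of uridine to pseudouridine in ribosomal RNA, and most are cut from introns of host genes that often encode parts of the translation machinery. ScaRNAs guide modification of spliceosomal RNAs in Cajal bodies, and can carry H/ACA elements, C and D boxes or both.

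The sequences below are the GENCODE M21 transcripts on GRCm38 (mm10), printed to show the boxes of the most abundant members and the mature miRNAs that lie inside members. Capitals mark the H box letters ANANNA, where they start between bases 40 and 100, and an ACA near the end in Snora41, Snora3 and Snora30.
Snora41: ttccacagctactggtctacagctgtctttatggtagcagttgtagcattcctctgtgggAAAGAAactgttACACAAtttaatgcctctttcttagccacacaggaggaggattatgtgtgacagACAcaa
Snora3: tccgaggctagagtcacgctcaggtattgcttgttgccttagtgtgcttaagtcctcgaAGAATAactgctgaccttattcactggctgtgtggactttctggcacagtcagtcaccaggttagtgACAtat
Snora30: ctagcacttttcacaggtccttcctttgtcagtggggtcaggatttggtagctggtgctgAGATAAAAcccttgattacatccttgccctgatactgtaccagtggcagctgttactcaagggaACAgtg
In Snora44 the H box letters alone are in capitals, since no ACA stands 2 to 5 bases before the end of its annotated transcript.
Snora44: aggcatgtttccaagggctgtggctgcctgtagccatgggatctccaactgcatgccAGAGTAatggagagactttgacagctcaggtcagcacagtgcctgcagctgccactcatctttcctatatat
In the next pair the capitals mark mature miRNAs listed by RefSeq: miR-664-5p and miR-664-3p in Snora36b, and miR-1291 in Snora34.
Snora36b: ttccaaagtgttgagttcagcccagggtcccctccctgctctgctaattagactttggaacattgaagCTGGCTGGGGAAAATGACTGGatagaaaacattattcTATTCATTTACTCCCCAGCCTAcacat
Snora34: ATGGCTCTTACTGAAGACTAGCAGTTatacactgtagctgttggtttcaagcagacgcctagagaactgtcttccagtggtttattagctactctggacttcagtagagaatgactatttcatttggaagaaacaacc
In Scarna9 the capitals mark a C box and a D box.
Scarna9: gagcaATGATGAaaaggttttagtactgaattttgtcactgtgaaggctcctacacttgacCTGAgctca

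Snora41 lies at chr1:63179004-63179135 (+ strand) in an intron of Eef1b2, a translation elongation factor subunit. Snora44 lies at chr4:132309941-132310069 (+ strand) within Snhg12, a long non-coding snoRNA host gene, and Snora3 at chr7:109520120-109520251 (+ strand) within Rpl27a, a ribosomal protein gene. Both overlap an annotated exon of the host, which can be that of a transcript with a retained intron. Snora36b lies at chr1:185242907-185243038 (+ strand) in an intron of Rab3gap2, and Snora30 at chr7:127527874-127528003 (+ strand) in an intron of Srcap, a chromatin remodeller gene. Snora81 lies at chr16:23110756-23110933 (+ strand) within Eif4a2, which encodes a translation initiation helicase.

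Sequence features bore out the H/ACA label for the Snora entries. ACA stood exactly 3 bases before the end in 28 of 34 and 2 to 5 bases before it in 32 of 34, the exceptions being Snora44 and Snora81. Among the 94 named C/D box snoRNAs (Snord), 0 had ACA exactly 3 bases before the end and 4 had it 2 to 5 bases before. The H box letters ANANNA, searched on the transcript strand, were present in 31 of 34 Snora entries, but also in 59.6% of Snord entries, so that they separate the families poorly. No Snora entry had a C box (ATGATGA or GTGATGA in the first 20 bases), and 2 had the D box letters CTGA in the last 20 bases, against 66 and 92 of the 94 Snord entries. Both Scarna entries had a C and a D box and no ACA 2 to 5 bases before the end. Since ACA was searched near the end only, this cannot show whether an H/ACA element lies inside either transcript. Scarna10 is known as a composite guide for U5 snRNA, and Scarna9 was annotated with 70 bases.

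Of the 36 members, 10 lay in ribosomal protein genes, 4 in translation factor genes, 5 in long non-coding snoRNA hosts, 15 in other genes and 2 outside any gene on the same strand. The 4 members in translation factor genes held 49.4% of all member reads, nearly all of them from Snora41. A host shared by several members did not give them like levels. Snora44, Snora61 and Snora16a all lie in Snhg12, and their mean levels were 91.9, 1.33 and 2.16 normalized counts per 100 bases.

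Members were a very small part of pEV small RNA. Libraries held 36220722 to 117583663 reads, of which tRNA entries took 90.8% to 99.9% and members 7.48e-05% to 0.00668%. In all, 11295 reads fell on members, 4539 in PS19 and 6756 in WT libraries, against 118485 reads on Snord entries. The summed normalized level of Snord was above that of Snora in each of the 16 libraries, by 2.23 to 61.8 times. Between 10 and 19 members had a read in any one library, and 1 read was worth 0.389 to 3.83 normalized counts. When the 16 libraries were ranked by member share and by miRNA share, no library's ranks differed by more than 3 places. In 2 libraries, PS19 replicates 1 and 4, fewer than 0.1% of reads were miRNA reads, and these held 71 and 61 member reads, the fewest of all. All 6 marker miRNAs checked, miR-451a, miR-486a-5p and miR-16-5p (red blood cells), miR-223-3p (myeloid cells), miR-122-5p (liver) and miR-126a-3p (endothelium), were present in every library, and 5 of the 6 had the lower median in PS19. PS19 and WT medians were 1557 and 2416 normalized counts for miR-451a, 30934 and 36305 for miR-486a-5p, and 128 and 161 for miR-16-5p. They were 24294 and 89927 for miR-122-5p, 1288 and 1850 for miR-126a-3p, and 35.9 and 25.6 for miR-223-3p. The part of these sources in the results was not tested.

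A few members made up nearly all of the signal. Snora41 alone had 5427 reads, 48.0% of the total, and the 5 highest members (Snora41, Snora44, Snora3, Snora36b and Snora30) together had 94.1%. Only Snora41, Snora44, Snora3 and Snora36b had reads in all 16 libraries. At the other end, 18 members had under 10 reads in all and 8 were seen in 1 library, and the median member had 8.5 reads.

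**Figure D1:**
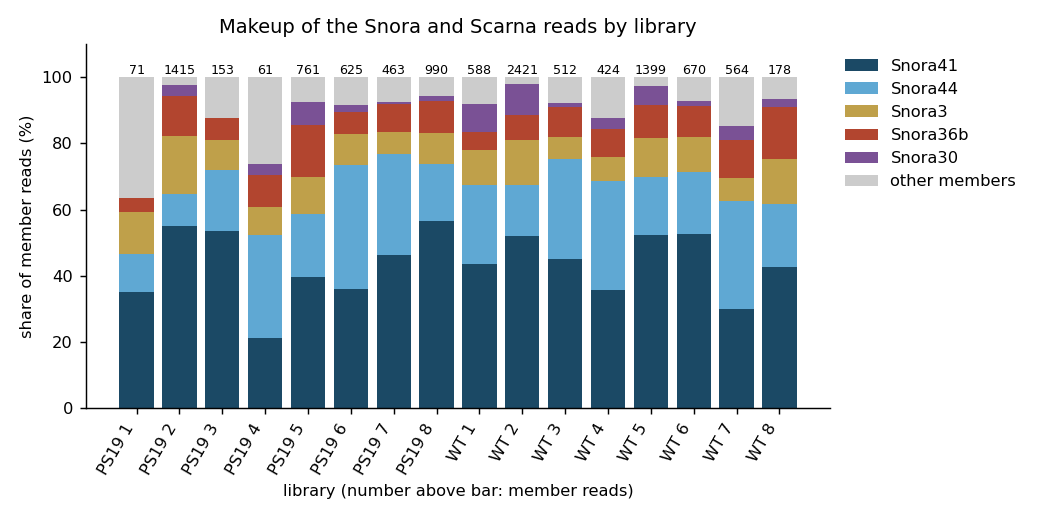
Share of all Snora and Scarna reads (percent, y axis) taken by each of the 5 highest members and by the other 31 in each library (x axis), with the number of member reads above each bar. Snora41 took 21.3% to 56.7%, and the 5 highest members took 63.4% in PS19 replicate 1 and up to 98.0% in WT replicate 2.

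Per length, Snora41 stood highest at 183 ± 114 normalized counts per 100 bases (SD, n = 16), followed by Snora44 at 91.9, Snora3 at 43.6, Snora36b at 38.7, Snora30 at 17.3 and Snora81 at 4.02. Reads of small RNA libraries can come from part of a transcript, so these levels need not be those of whole snoRNAs. Snora41 was above Snora44 in 13 of the 16 libraries and Snora44 above Snora3 in 14. Snora3 and Snora36b could not be ordered, since each was the higher in 8 libraries. Snora36b was above Snora30 in 14 libraries and Snora30 above Snora81 in 12. Below these, Snora34, Snora57 and Snora7a had 2.55, 2.51 and 2.42 normalized counts per 100 bases and did not keep their order between libraries.

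At the top of the list the PS19 and WT ranges overlapped throughout. The normalized count of Snora41 ran from 36.7 over a median of 193 to 557 in PS19, and from 108 over 229 to 517 in WT. That of Snora44 ran from 11.8 over 107 to 216 in PS19, and from 48.3 over 152 to 216 in WT. PS19 medians were the lower in both, and for both members 2 of the 8 PS19 libraries lay below every WT library. The log2 difference, PS19 minus WT, of the normalized count plus 1 was -0.55 (SE 0.53, limma p = 0.311, exact permutation p = 0.323) for Snora41 and -0.68 (SE 0.53, limma p = 0.213, exact permutation p = 0.224) for Snora44.

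Snora3 ran from 13.2 over 39.1 to 179 normalized counts in PS19 and from 33.2 over 44.2 to 135 in WT. Snora36b ran from 4.41 over 36.0 to 122 in PS19 and from 37.1 over 49.9 to 75.3 in WT. PS19 libraries spread more widely than WT libraries in both, with 4 PS19 values below every WT value and the highest value also in PS19. The differences were -0.40 (SE 0.53, limma p = 0.448, exact permutation p = 0.429) for Snora3 and -0.55 (SE 0.55, limma p = 0.324, exact permutation p = 0.349) for Snora36b. The 95% interval of the difference reached from -1.48 to 0.67 for Snora3 and from -1.68 to 0.58 for Snora36b.

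Without the 2 PS19 libraries under 0.1% miRNA reads, an exclusion chosen after seeing the data, the difference was 0.08 for Snora41, 0.02 for Snora3, -0.01 for Snora36b and -0.23 for Snora44. The negative sign of Snora41 and Snora3 thus did not hold without those 2 libraries. Both had the fewest member reads of all, so an upward move was built into this exclusion. Without PS19 replicate 1 alone the differences were -0.25 for Snora41, -0.30 for Snora44, -0.19 for Snora3 and -0.17 for Snora36b. Without PS19 replicate 2 alone they were -0.81, -0.72, -0.71 and -0.81 in the same order. With size factors taken from miRNAs alone, which moved the median of all ncRNAs from -0.01 to 0.18, the differences were 0.03 for Snora41, -0.10 for Snora44, 0.16 for Snora3 and -0.0009 for Snora36b, so that all of them shifted upward together. DESeq2 on recovered reads gave -0.20, -0.46, -0.07 and -0.02 in the same order. In the libraries of the PS19 letter, described below, they were -1.11, -1.23, -1.01 and -0.91.

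Snora30 had the largest difference. It ran from 0 over 8.92 to 43.8 normalized counts in PS19 and from 5.69 over 22.2 to 93.8 in WT. All 8 WT libraries but only 6 PS19 libraries had a read of it, and 3 PS19 libraries lay below every WT library. The difference was -1.59 (SE 0.78, 95% interval -3.19 to 0.0027) with a limma p of 0.0504, an adjusted p of 0.829 and an exact permutation p of 0.104, so that it missed the study's threshold of 0.05. Of 28 alternative settings, 13 brought its p below 0.05, and in all 28 it was lower in PS19, by a difference of -2.68 to -1.18. The largest differences were -2.68 in the libraries of the PS19 letter and -2.46 with a pseudocount of 0.1, both past the threshold. Without the 2 PS19 libraries under 0.1% miRNA reads it was -1.18, again short of the threshold. WT replicate 2 held 228 of its 548 reads, and the difference without that library was -1.28, likewise short of it.

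Snora81 ran from 0 over 3.59 to 10.1 normalized counts in PS19 and from 0 over 5.45 to 35.5 in WT. Its highest values were those of WT replicates 7 and 1, and the other WT libraries lay within the PS19 range. The difference was -0.61 (SE 0.67, limma p = 0.368, exact permutation p = 0.402). It was -1.37 with edgeR, -1.22 with DESeq2 and -0.24 with miRNA factors. Without WT replicate 7 it was -0.26 and without PS19 replicate 3 it was -0.32. Scarna10 ran from 0 over 6.44 to 9.08 normalized counts in PS19 and from 0 over 1.79 to 15.6 in WT. The higher median was in PS19 and the higher mean in WT, at 5.11 ± 6.01 (SD) against 4.80 ± 3.40 over 8 mice each. Its difference of 0.12 (SE 0.67, limma p = 0.860, exact permutation p = 0.866) changed sign in 7 of 27 alternative settings. Scarna10 had no read in the 2 PS19 libraries under 0.1% miRNA reads, and without them the difference was 0.83, short of the threshold.

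**Figure D2:**
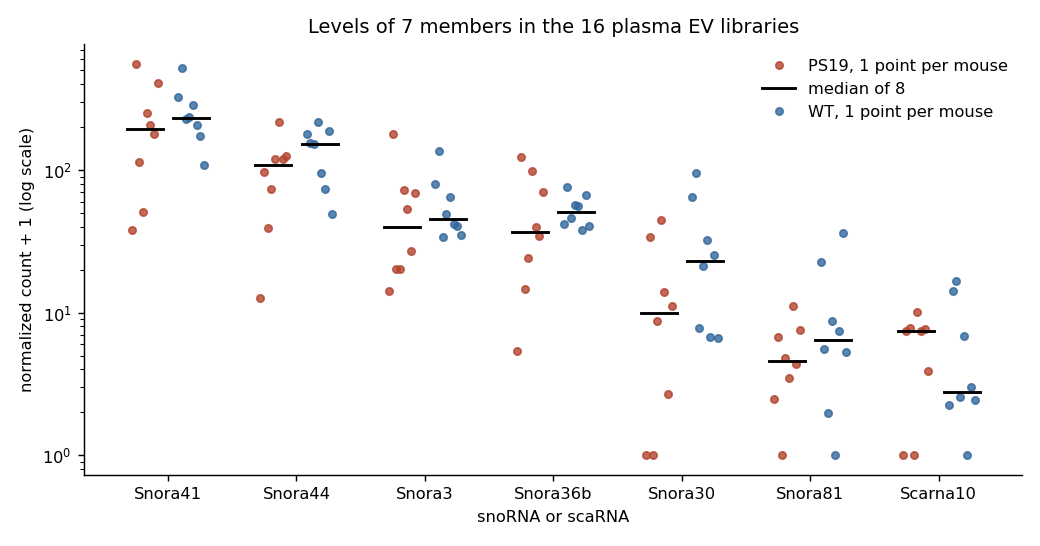
Normalized count plus 1 (y axis, log scale) of Snora41, Snora44, Snora3, Snora36b, Snora30, Snora81 and Scarna10 in each of the 8 PS19 and 8 WT libraries (points), with group medians as lines. The groups overlap for every member, and the lowest PS19 points of the first 5 members fall below all WT points.

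Across all members, 0 of 36 passed limma's unadjusted p of 0.05, against 4.85% of all 15159 ncRNAs, and 0 passed the adjusted one. The exact permutation test also called 0, against 3.96% of all ncRNAs. The median log2 difference of the members was -0.06, beside -0.01 over all ncRNAs, with 20 members below 0 and 16 above. All of the 6 highest members were below 0, with the exceptions in other settings given above. Members with 10 to 120 reads had differences from -0.61 to 0.82. The groups did not overlap for 0 of 36 members, nor for any other ncRNA (0.0% of 15159), so that this count says nothing particular about the members.

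On reads recovered from the normalized counts, DESeq2 called 0 of 36 members, against 5.42% of all ncRNAs. The edgeR quasi-likelihood test called 2, Snora5c and Snora52, both lower in PS19, against 15.1% of all ncRNAs. All 10 reads of Snora5c and all 4 of Snora52 came from WT replicate 4, so that both calls rested on that library. Library names of all PS19 mice started with the letter G, as did those of 2 WT mice, WT replicates 2 and 4. Names of the other WT libraries started with F or A, so letter and genotype cannot be fully told apart in the full comparison. In the 10 libraries of the letter G, limma called 3 of the 34 members fitted (8.82%, against 4.62% of the ncRNAs tested there). These were Snora30, Snora5c and Snora52, all lower in PS19, and the calls of Snora5c and Snora52 again rested on WT replicate 4. Snora30 had 93.8 and 20.1 normalized counts in the 2 WT libraries of that letter.

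**Figure D3:**
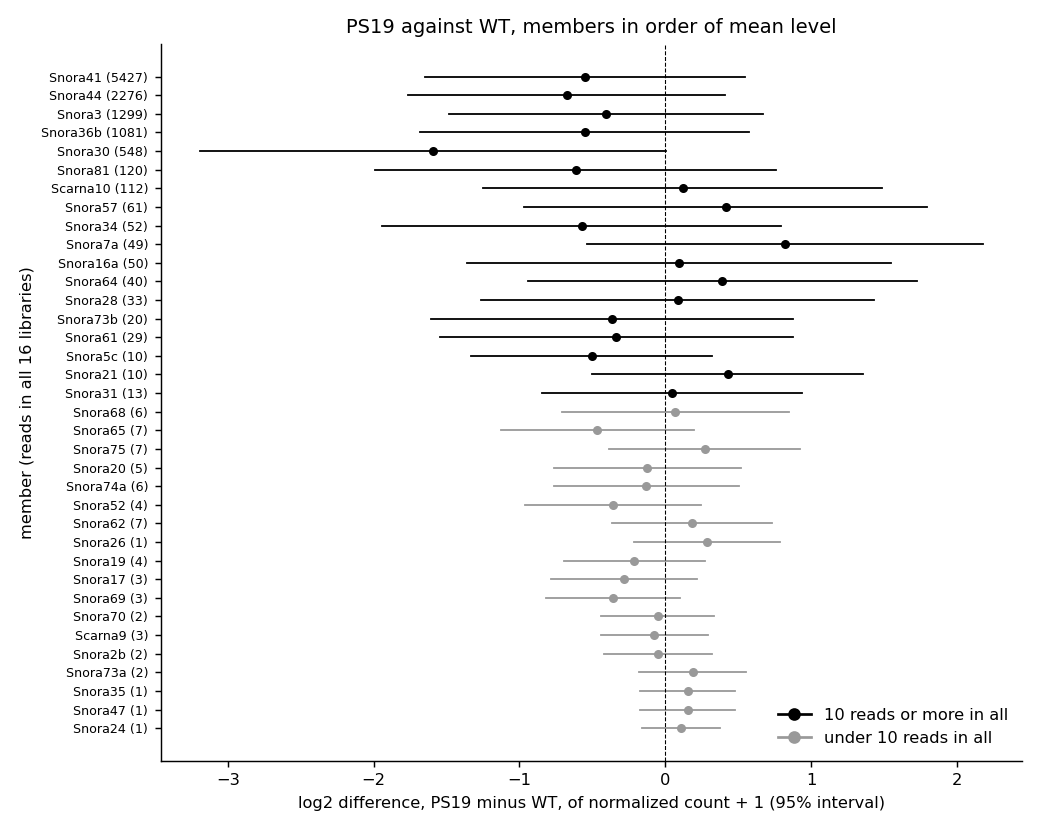
Log2 difference, PS19 minus WT, of the normalized count plus 1 (x axis; points, with 95% intervals as lines) for the 36 members in order of mean level, with the reads of each in parentheses (y axis); members under 10 reads are in grey. Each interval includes 0, and that of Snora30 ends at 0.0027.

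The summed normalized level of the Snora entries was 576 ± 224 in the WT libraries, with a SD over 8 mice, and 479 ± 304 in the PS19 libraries. The groups thus differed by less than either spread, and the same held for the 2 Scarna entries, whose sums were 5.28 ± 6.26 and 4.90 ± 3.56. On the log2 scale of the sum plus 1, the Snora difference of -0.48 was -0.21 without PS19 replicate 1, -0.05 without the libraries under 0.1% miRNA reads, 0.11 with miRNA factors and -1.06 in the libraries of the PS19 letter. The Scarna difference was 0.11, opposite in sign to that of the mean sums, and was 0.83 and -0.45 in the second and the last of these. Among related RNAs, limma called 1 of 94 Snord entries, higher in PS19, and 0 of the 15 named spliceosomal and 7SK entries. The median Snord difference was -0.31, but 0.51 in the libraries of the PS19 letter, 0.12 with miRNA factors and -0.07 without WT replicate 7. Both the count and the direction of the Snord calls depended on single libraries. There were 7 calls (7.45% of Snord against 5.31% of all ncRNAs; 6 lower in PS19) without PS19 replicate 4, 6 (6.38% against 5.40%; 4 lower) without PS19 replicate 6, 5 (5.38% against 5.61%; 4 lower) without PS19 replicate 5, and 3 (2 lower) without PS19 replicate 2 or without WT replicate 3. Without PS19 replicate 7 there were 3 calls, all higher, without PS19 replicate 1 or 8 there were 2, all higher, and without WT replicate 2 there was 1, lower. TMM factors gave 3 calls (3.19% against 5.32%; 2 lower) and edgeR 8 (8.51% against 15.1%; 2 lower). Among these settings, the Snord share lay above that of all ncRNAs only without PS19 replicate 4 or 6, and nothing particular to Snord is read from the counts. Telomerase RNA (Terc), a known H/ACA RNA, and Rmrp and Rpph1 had no entry in the table. In bulk pEV RNA, fewer vesicles of a kind and less RNA per vesicle cannot be told apart.

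Snora36b, Snora34 and Snora19 shared sequence with mature miRNAs that the table lists on their own. Snora36b holds miR-664-5p at bases 69 to 89 and miR-664-3p at bases 106 to 127, and Snora34 begins with miR-1291; the miRNA entries were chosen after their values were seen. The RefSeq mature sequences follow, with the seed (bases 2 to 8) in capitals.
miR-664-5p: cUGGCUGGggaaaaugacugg
miR-664-3p: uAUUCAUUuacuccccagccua
miR-1291: aUGGCUCUuacugaagacuagcaguu
The 3 seeds differ from each other.

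Snora36b had 1081 reads and miR-664-5p had 879, and in each of the 16 libraries the miRNA had no more reads than the snoRNA. With miR-664-3p (35 reads) and the mir-664 hairpin (91 reads), the miRNA entries came to 93.0% of the Snora36b reads, between 75.0% and 100% in single libraries and equal to them in 5. The miR-664-5p reads were 76.3% of the Snora36b reads in PS19 and 85.4% in WT. Whether the same reads stand behind both entries was not tested, since the table does not follow single reads. For Snora34, miR-1291 had 24 reads beside 52, made up of 3 beside 18 in PS19 and 21 beside 34 in WT, and again no more than the snoRNA in any library. Of the less abundant members, Snora19 holds miR-3084, with 4 reads in all.

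**Figure D4:**
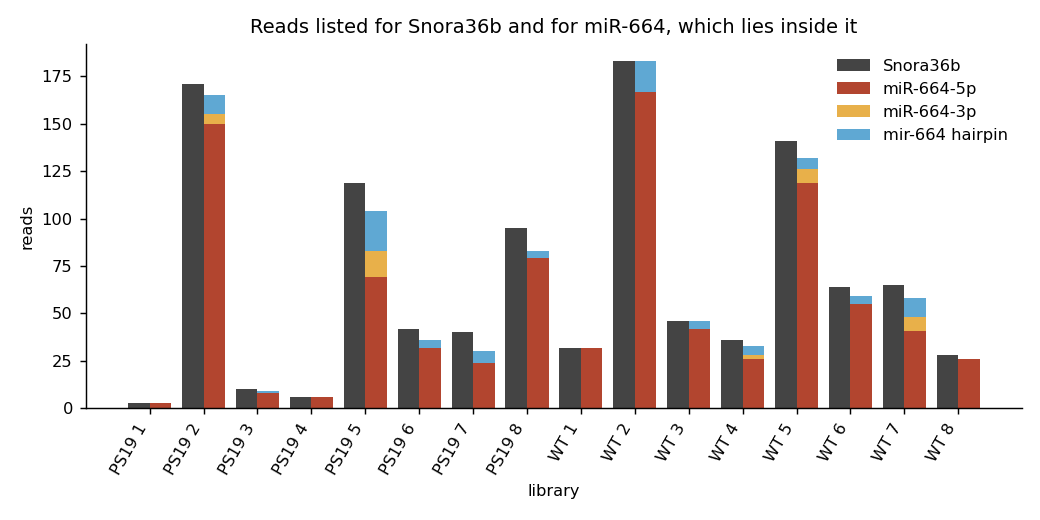
Reads (y axis) listed in each library (x axis) for Snora36b (dark bars) and, stacked beside them, for miR-664-5p, miR-664-3p and the mir-664 hairpin. The stacked bars reach 75.0% to 100% of the dark bar.

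Snora30 also had a partner in the table. The entry Gm25133, an annotated gene of 130 bases at chr14:96588827-96588956, had the same value as Snora30 in every library, and 128 of its 130 bases are those of Snora30. The reads of these 2 entries therefore cannot be told apart, and the level given for Snora30 is uncertain to that extent. Among entries with at least 50 reads, the circular RNA entries circ_0013901 and circ_0013898 also moved with Snora30 (Pearson r = 0.998 each). Whether they share its reads was not tested. In all, 14 members had values identical to at least 1 other entry, but Snora30 was the only one of them with 10 reads or more.

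Over the 16 libraries, the levels of Snora41 and Snora3 moved closely together (Pearson r = 0.93, Spearman rho = 0.93, on normalized counts). Snora3 and Snora36b had r = 0.83 and Snora41 and Snora36b r = 0.80, while Snora44 had r = 0.36 (rho = 0.50) with Snora41 and r = 0.24 (rho = 0.49) with Snora3. These points share the libraries and their scaling. Likeness to other entries was searched among those with at least 50 reads. The entry outside the members most like Snora41 was miR-423-3p (r = 0.97), that most like Snora44 was miR-486a-3p (r = 0.88), and that most like Snora36b was miR-664-5p (r = 0.95). Gm24698 was most like Snora3 (r = 0.96) and had r = 0.95 with Snora41. Snora81 was most like the circular RNA entry circ_0006166 (r = 0.99).

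The remaining members were sparse, and are given by level and number of libraries. From Snora34 down to Snora65 their mean levels ran from 2.55 to 0.361 normalized counts per 100 bases. Snora57 (61 reads), Snora7a (49 reads) and Snora64 (40 reads) were seen in 11, 11 and 9 libraries. Snora34 had reads in 12 libraries, Snora16a in 8, Snora61 in 9, Snora28 in 6 and Snora31 in 5. Snora21 had 10 reads in 4 libraries, and Snora68 and Snora65 had 6 and 7 reads in 4 libraries each. Snora75, Snora62, Snora20, Snora70 and Snora2b had 2 to 7 reads in 2 to 4 libraries.

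Snora73a and Snora73b are known for a role in ribosomal RNA processing rather than pseudouridylation. Snora73b had 20 reads in 5 libraries and its neighbour Snora73a, which shares the host Rcc1, had 2 reads in 1 library. Snora74a had 6 reads in 3 libraries. Scarna9 had 3 reads in 3 libraries, 1 of them PS19.

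Absence from 1 genotype was seen only at low counts. The members with no read in PS19 were Snora5c, Snora52 (4 reads), Snora17 (3 reads) and Snora69 (3 reads). Those with no read in WT were Snora73a (2 reads) and Snora26, Snora35, Snora47 and Snora24 (1 read each). Apart from Snora5c and Snora52, none of these reached more than 3 reads in any library, the count below which a zero in another library says little, so that a difference was not detectable at this depth.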

How the data were processed

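Plasma EV small RNA was read out in 1 library for each of 16 mice (8 PS19, 8 WT), so the replicates are separate animals. The authors aligned reads with STAR 2.5.3a (mm10, as given in the submitters' processing notes), assigned them to ncRNAs with COMPSRA 1.0.3, and deposited normalized counts (a signal: read counts divided by DESeq2 1.42.1 size factors). The deposited table also holds the authors' own log2 fold changes with standard errors, the Wald test score and p-values, which were not used. Values were whole multiples of 1 read for 100% of entries (tolerance 1e-06 reads), so reads were recovered. Intervals of differences are limma's and rest on the spread between mice; the floor of 3 reads covers counting error only.

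Because the values are normalized, limma 3.58.1 (R 4.3.3; trend, all ncRNAs with a read) was applied to log2(normalized count + 1), which understates changes of low entries, with the study's unadjusted p of 0.05 and Benjamini-Hochberg values beside it. Exact two-sided permutation tests used all 12870 splits. The fit was tested on simulated data. Alternatives were edgeR 4.0.16 and DESeq2 1.42.0 on recovered reads, other scalings (library totals, TMM, miRNA-only factors), a mean of at least 1 or 10, a pseudocount of 0.1, the replicate number as a block, leaving out libraries, and 1 entry per identical set. Members and lists were chosen with earlier results of these data known. Full values are given for the 6 highest members, the highest Scarna and any member below p 0.05; the others are given by level and number of libraries. Annotation was GENCODE M21 (GRCm38), and all 36 members matched it; mature miRNAs were from the RefSeq table of GRCm38.p6.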

Additional observations from a re-analysis of the deposited data

How the results depend on the processing

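The count of members called by limma was 0, and became 1 (Snora30, lower in PS19) with TMM factors, a mean of at least 1, a pseudocount of 0.1 or 1 entry per identical set, 2 with edgeR and 3 in the libraries of the PS19 letter. It stayed 0 with DESeq2, library totals, miRNA factors, a mean of at least 10 and without the libraries under 0.1% miRNA reads, and was 0 to 1 on leaving out 1 library (1 without PS19 replicates 2, 5, 6 or 8 or WT replicates 3, 6 or 8). In the settings with 1 call, 2.78% to 6.67% of members and 4.45% to 6.91% of all ncRNAs were called, so that these moves are no result about the members. With the replicate block it was 1, but the numbers mark different mice: same-numbered libraries correlated at -0.11 to 0.19, 1 of 8 pairs was over 0.1, and 1 of 8 PS19 libraries correlated best with its own number.

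The median log2 difference of the members, -0.06, was -0.21 with edgeR, -0.37 and -0.55 with a mean of at least 1 and 10, where 15 and 5 members were fitted, -0.24 with a pseudocount of 0.1, 0.016 with miRNA factors, 0.065 in the libraries of the PS19 letter, and -0.13 to -0.0050 on leaving out 1 library. MiRNA factors moved the median of all ncRNAs to 0.18 and library totals to -0.11. Scarna10 was -0.060 with DESeq2, -0.29 with edgeR, -0.46 in the libraries of the PS19 letter, -0.087 with a pseudocount of 0.1, 0.83 without the libraries under 0.1% miRNA reads, and -0.17 to 0.42 on leaving out 1 library. Snora41 and Snora3 were 0.032 and 0.16 with miRNA factors and 0.077 and 0.016 without the libraries under 0.1% miRNA reads, the exclusion chosen after seeing the data. The cause of these shifts was not tested. Snora36b ran from -0.91 to -0.0009, Snora44 from -1.23 to -0.10 and Snora81 from -1.37 to -0.24, with p above 0.05 throughout; Snora36b was near 0 with miRNA factors and with DESeq2 (-0.02). Depth limits most the 18 members with under 10 reads in all.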
